A study of Mus musculus with 2 samples.

Results

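The cells described here were 198 cultured control lung fibroblasts of the mouse, picked because they were the highest in the sum of 5 inflammatory transcripts: Saa3, Lcn2, Cxcl1, Cxcl5 and Ccl2. They came from 1 of 2 droplet single-cell libraries, a control and a stimulated one, 1 library per group, in which every captured transcript 3′ end carries a unique molecular identifier (UMI). Cells of whole C57BL/6 lung (a common inbred strain) had been plated in advanced DMEM/F12 with 10% FBS, taken to passage 3 and then kept for 14 days either with vehicle, as controls from the same lung, or with stimuli. The stimuli named are 10 µM rosiglitazone, 1 µM SB4315442 and 4 µM rhBMP4, singly or combined. The medium supplement ITS+3 at 1% is named as another way towards a lipofibroblast-like state, and which of these the stimulated cells received is not in the labels. Depth came to 88876791 UMIs over 5016 control barcodes and 117381412 UMIs over 7698 stimulated ones. Of the control barcodes, 3951 had at least 5000 UMIs, at most 20% mitochondrial UMIs and under 10 UMIs per 10,000 over the macrophage genes C1qa, C1qb, C1qc, Tyrobp and Fcer1g. The members are the 198 cells of this pool at or above its 95th percentile of the summed 5 genes, and the other 3753 cells are what they are set against. Since the 5 genes chose the cells, their levels are given as a description. With 1 library, no difference below has a replicate check and none was tested, and the intervals cover counting error alone.

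As background, inflamed fibroblasts make proteins that call in and restrain leukocytes. Serum amyloid A3, from Saa3, is an acute phase apolipoprotein made outside the liver, and lipocalin 2, from Lcn2, withholds iron from bacteria by binding their siderophores. CXCL1 and CXCL5 attract neutrophils through the receptor CXCR2, and CCL2 attracts monocytes through CCR2. In fibroblasts such genes are commonly induced by interleukin 1 or tumour necrosis factor acting through NF-kB, and by interleukin 6 family cytokines acting through STAT3 and C/EBP factors. The genes that NF-kB induces include its own inhibitors, such as Nfkbia.

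Promoter sequences are shown for Saa3, which leads one of the 2 kinds of member described below, and for Cxcl1, Nfkbia and Il6, genes of the NF-kB response that were also high in members. They are the 150 bases before the annotated start, read 5′ to 3′ on the gene's strand from RefSeq (GRCm38.p6), and the genes were chosen after their values were seen. Capitals mark a match to the kB consensus, by which NF-kB dimers are known to bind, or to the C/EBP consensus TTNNGNAAT, searched on both strands.
Saa3 (chr7:46715677-46715826, minus strand): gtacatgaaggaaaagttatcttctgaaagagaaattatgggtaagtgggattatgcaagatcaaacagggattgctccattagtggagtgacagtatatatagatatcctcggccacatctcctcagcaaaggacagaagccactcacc
Cxcl1 (chr5:90891095-90891244, plus strand): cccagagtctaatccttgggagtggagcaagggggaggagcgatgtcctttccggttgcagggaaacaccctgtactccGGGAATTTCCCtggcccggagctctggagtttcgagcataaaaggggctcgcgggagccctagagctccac
Nfkbia (chr12:55492648-55492797, minus strand): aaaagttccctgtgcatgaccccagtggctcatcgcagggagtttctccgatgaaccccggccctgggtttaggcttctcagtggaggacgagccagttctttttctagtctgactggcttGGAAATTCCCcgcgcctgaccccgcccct
Il6 (chr5:30012964-30013113, plus strand): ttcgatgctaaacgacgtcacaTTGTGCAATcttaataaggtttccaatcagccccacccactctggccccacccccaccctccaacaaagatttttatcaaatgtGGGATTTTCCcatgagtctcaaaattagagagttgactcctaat
In Cxcl1 a pair of overlapping kB matches began 71 and 70 bases before the start, in Nfkbia a kB match began 29 bases before it, and in Il6 a kB match began 44 and a C/EBP match 128 bases before it. The Saa3 window held neither pattern of letters. Over the 250 bases before the start, 7.25% of the 32851 promoters in the RefSeq table held the kB consensus and 10.2% the C/EBP consensus. Of 18 genes looked up, 11 had an entry, 6 of them with a kB match and 3 with a C/EBP match in those 250 bases. The 18 were picked by hand, with genes of the NF-kB response among them, and some have several promoter entries. These counts per gene therefore cannot be set against the shares per promoter. Lcn2, Ptx3 and Birc3 had neither, and C3 had only a C/EBP match. A match is a pattern of letters and not a measured site.

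The 5 genes were uneven in what they contributed. Over the members, Saa3 held 61.8% of the UMIs of the 5 genes and Ccl2 34.5%, whereas Cxcl1 held 2.30%, Lcn2 0.898% and Cxcl5 0.503%. In summed counts per 1000000 UMIs (CPM), Saa3 stood at 1160.3 in members and 10.5 in the other pool cells, and Ccl2 at 648 and 27.9. Cxcl1 stood at 43.2 and 1.32 CPM, Lcn2 at 16.9 and 0.343, and Cxcl5 at 9.45 and 1.00. A UMI of Saa3 was seen in 117 members and one of Ccl2 in 163, against 32 members for Cxcl1, 15 for Lcn2 and 15 for Cxcl5. The sum of the 5 genes ran from 4.68 to 484 UMIs per 10,000 in members, with a median of 9.71, and 59.6% of the other cells had none. The boundary was continuous: the 20 members nearest the limit of 4.65 lay at 4.68 to 5.36 UMIs per 10,000 and the 20 other cells nearest it at 4.22 to 4.62, with a median of 10 UMIs of the 5 genes in each set. Members were not deeper than the rest, with a median of 18258 UMIs against 21167.

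**Figure D1:**
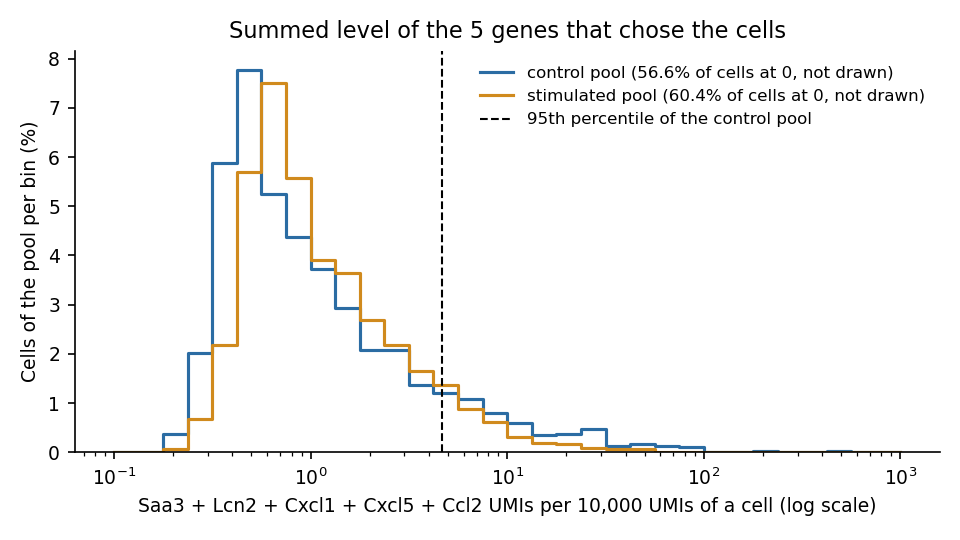
Distribution of the summed Saa3, Lcn2, Cxcl1, Cxcl5 and Ccl2 UMIs per 10,000 UMIs of a cell (x axis, log scale) as the percent of pool cells per bin (y axis) in the control and stimulated libraries, with the control 95th percentile as a dashed line. Cells at 0 (56.6% of the control and 60.4% of the stimulated pool) are not drawn, and the control library reaches 484 UMIs per 10,000 while the stimulated one ends at 59.2.

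The members did not form a single state with all 5 genes high. UMIs of only 1 of the 5 genes were seen in 86 members, of 2 in 88, of 3 in 16, of 4 in 8 and of all 5 in none. The leading gene was Ccl2 in 109 members, Saa3 in 84, Lcn2 in 2, Cxcl1 in 2 and Cxcl5 in 1. Saa3 and Ccl2 occurred together in 83 members, Saa3 without Ccl2 in 34 and Ccl2 without Saa3 in 80. Members were therefore also read as 2 kinds: 83 acute phase led cells, in which Saa3 and Lcn2 held over 50% of the UMIs of the 5 genes, and 115 chemokine led cells. Saa3 per cell ran from 0.574 to 474 UMIs per 10,000 with a median of 14.9 in the acute phase led cells, and from 0 to 21.5 with a median of 0 in the chemokine led cells, 81 of which had none. The sum of Cxcl1, Cxcl5 and Ccl2 ran from 0 to 18.2 with a median of 0.776 in the acute phase led cells and from 2.68 to 72.4 with a median of 7.89 in the chemokine led cells. Both ranges overlap, so the kinds are ranges of a ratio and not cell types. A few cells carried much of the signal, since the 10 highest held 51.3% of the members' Saa3 UMIs and the 10 highest for Ccl2 held 23.6% of its UMIs.

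**Figure D2:**
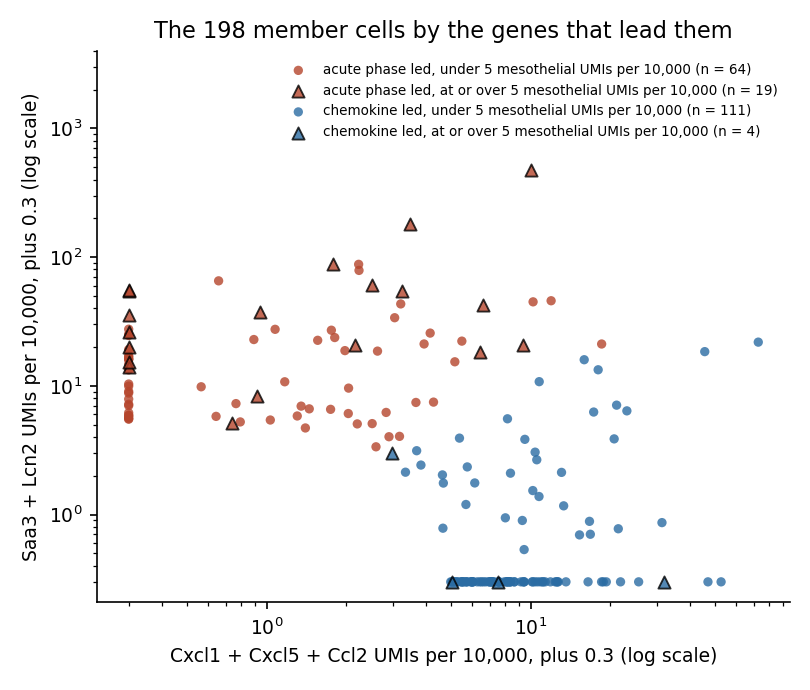
Each point is 1 of the 198 members, placed by its Cxcl1, Cxcl5 and Ccl2 UMIs per 10,000 (x axis) and its Saa3 and Lcn2 UMIs per 10,000 (y axis), both plus 0.3 on log scales. Triangles mark the 23 members with at least 5 mesothelial marker UMIs per 10,000, of which 19 are acute phase led, and the column and row at 0.3 are cells with none of the genes on that axis.

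Leaving a gene out of the sum showed how far it still differed in cells chosen without it. Cells chosen without Saa3 shared 132 of the 198 members and still held Saa3 at 564 CPM against 38.2 in the rest, a 14.8-fold difference (95% interval 14.0 to 15.6). Cells chosen without Ccl2 shared 116 members and held Ccl2 at 251 against 47.2 CPM, a 5.31-fold difference (4.95 to 5.71). The same reading gave 30.03-fold for Cxcl1 (23.5 to 38.5), 11.9-fold for Lcn2 (7.58 to 18.4) and 6.69-fold for Cxcl5 (4.25 to 10.3). Each of the 5 was thus higher in the sum over cells chosen on the other 4. For Lcn2, at 8.75 against 0.734 CPM, 1 cell held most of the UMIs in the chosen cells. For Cxcl1, at 41.9 against 1.40 CPM, 1 cell held a large part of them. The Saa3, Lcn2 and Cxcl1 folds lean on those cells, which the intervals do not cover. Folds without those cells are not given. Across the 3951 single cells the Spearman correlations between pairs of the 5 genes, at 5000 UMIs per cell, were weak, from -0.0061 for Cxcl1 with Cxcl5 to 0.126 for Saa3 with Ccl2. These cells share 1 library and most hold no UMI of either gene.

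Fibroblast markers were high in members and other cells alike. At 5000 UMIs per cell, the collagen gene Col1a1 had a UMI in 98.8% of acute phase led, 97.4% of chemokine led and 97.9% of the other cells, against 54.8% of the 126 macrophage-gene cells, whose median depth was 11130.5 UMIs. Col1a1 does not tell the mesothelial-marker cells apart, since the 19 acute phase led ones held it at 1372 CPM and the other 64 at 2626. The summed 12 fibroblast markers had a median of 130.2 UMIs per 10,000 in members and in the other cells, and no cell of either set was at 0. Transcripts of the epithelial genes Epcam, Cdh1 and Sftpc had 0 UMIs in members, as had the neutrophil genes S100a9 and Ly6g and the T cell gene Cd3e. The 12 macrophage markers summed to 93.5 CPM in members and 80.8 in the other cells, with 64 of 198 and 844 of 3753 cells at 0. The macrophage marker Adgre1 was at 0 in members and the pan-leukocyte gene Ptprc at 0.256 CPM. The 126 cells left out for macrophage genes were themselves high in Ccl2, at 569 CPM, while they held Saa3 at 33.9 CPM and neither Lcn2 nor Cxcl5. The 10 endothelial markers summed to 48.0 CPM in members and 48.2 in the rest.

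Mesothelial markers were the exception. Mesothelial cells line the lung's surface and express uroplakins, simple keratins and Wt1. Over the 12 markers the sum was 441 CPM in acute phase led cells, 102 in chemokine led cells and 53.1 in the other cells, and per cell it was 0 in 33 of the 83, 64 of the 115 and 2087 of the 3753. Upk3b, a uroplakin gene, stood at 74.9, 3.96 and 2.66 CPM in that order, and Wt1, a transcription factor gene of mesothelium, at 57.8, 3.96 and 5.24 CPM. Krt18, a simple keratin gene, stood at 49.3, 4.40 and 1.29 CPM. Not all of the 12 split the kinds. Nkain4, the only 1 abundant enough to count, was 2.08-fold higher in members. Its ratio of acute phase led to chemokine led cells was 0.967 (0.734 to 1.27). At least 5 UMIs per 10,000 over 10 of these markers were found in 23 members (19 acute phase led and 4 chemokine led) and in 51 other cells, that is, in 11.6% of members and 1.36% of the rest. Members made up 31.1% of the 74 such cells in the pool. These 23 cells held 50.5% of the members' Saa3 UMIs, at 5581 CPM against 642 in the other members and 29.7 in the 51 mesothelial-marker cells that were not members. A large part of the Saa3 UMIs of the 23 lay in 1 cell, at 474 per 10,000. Values without that cell are not given. The label of a fibroblast state with Saa3 and chemokines both high therefore holds only in part, and what the mesothelial-marker cells add was measured by leaving them out, with the values given below.

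**Figure D3:**
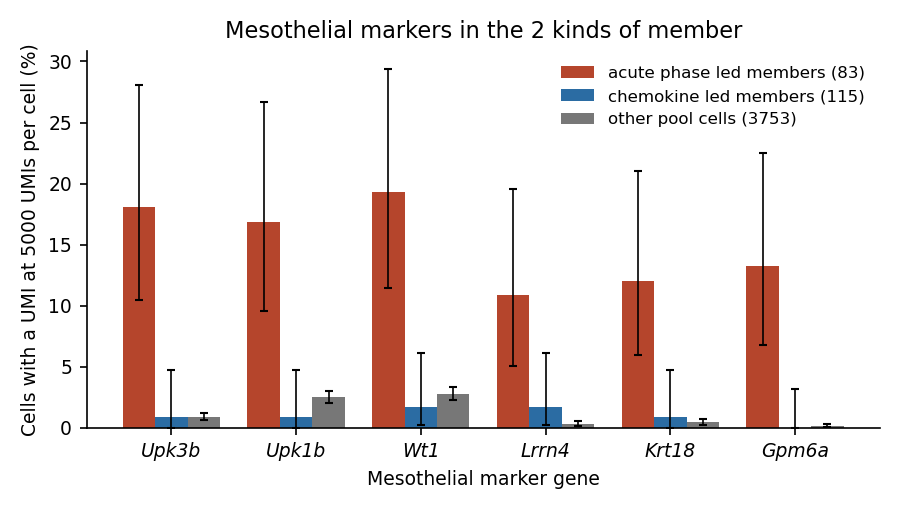
Percent of cells with a UMI of each mesothelial marker gene after thinning every cell to 5000 UMIs (y axis), for 83 acute phase led members, 115 chemokine led members and 3753 other pool cells, with exact binomial 95% intervals as error bars that cover counting error only. The acute phase led bar is the highest for all 6 genes, at 18.1% for Upk3b against 0.870% and 0.879%. The 6 are a part of the 12 markers, and Nkain4, whose level was similar in both kinds, is not drawn.

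Set against the other pool cells, the members differed in a small part of the transcriptome. Of 4654 genes with at least 20 CPM over the pool, 138 (2.97%) were at least 1.5-fold higher in members and 21 (0.451%) at least 1.5-fold lower, and the median gene differed by 0.06 on the log2 scale. Ribosomal protein genes took 29.4% of the members' UMIs and 34.2% of the others', so the split depends on the total used. When mitochondrial and ribosomal protein genes were left out of the total, every log2 fold moved by -0.10, the same genes gave 73 higher and 57 lower, and the higher share of those called went from 86.8% to 56.2%. Taken alone, acute phase led cells had 208 genes (4.47%) higher and 132 (2.84%) lower, and chemokine led cells 156 (3.35%) higher and 32 (0.688%) lower. Of the higher genes 57 were shared, which is 27.4% of the acute phase list and 36.5% of the chemokine list. Both lists were set against the same other cells. Between the kinds, 119 genes (2.56%) were at least 1.5-fold higher in acute phase led cells and 234 (5.03%) at least 1.5-fold higher in chemokine led cells. All these counts include Saa3 and Ccl2, which helped choose the cells and define the kinds. Both are among the genes higher in members and in each kind. Between the kinds Saa3 is among the 119 and Ccl2 among the 234. Counts by gene list below are to be read beside these shares of all measured genes.

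Among the 4654 genes of at least 20 CPM and outside the 5 choosing genes, the largest fold was that of Ccl7, which codes for a monocyte chemokine and lies next to Ccl2 in RefSeq gene order. Rarer genes went past it, such as the mesothelial markers Krt18, 18.1-fold, and Upk3b, 12.7-fold. Ccl7 stood at 669 CPM in members and 71.6 in the other cells, 9.35-fold higher (8.92 to 9.79), and reached 973 CPM in chemokine led cells against 249 in acute phase led cells. Per cell, Ccl7 ran from 0 to 88.7 UMIs per 10,000 with a median of 6.55 in chemokine led cells, where 1 of 115 had none, and from 0 to 18.2 with a median of 0.744 in acute phase led cells, where 27 of 83 had none. Of the 163 members with a Ccl2 UMI, 152 also had one of Ccl7, against 705 of 1095 other cells with Ccl2. At 5000 UMIs per cell a Ccl7 UMI was seen in 87.0% of chemokine led, 39.8% of acute phase led, 21.8% of other and 55.6% of the macrophage-gene cells. It was also the gene whose level in single cells most followed the summed 5 genes, with a Spearman correlation of 0.285 over 3951 cells. Lower among the 3811 genes compared were Sparc at 0.120, Dcn at 0.120 and Fth1 at 0.109, all weak, and these values share depth and library.

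Other genes with large folds were of several kinds. Il11, Nfkbia and Cxcl14, given further below, had folds in the same range. Sod3, for the extracellular superoxide dismutase, stood at 346 CPM in members and 90.3 in the others, 3.84-fold higher (3.62 to 4.07). Mgst1, for a membrane glutathione transferase, stood at 154 and 47.2 CPM, 3.26-fold (2.99 to 3.56). Isg15, for an interferon-induced ubiquitin-like protein, stood at 87.1 and 27.7 CPM, 3.15-fold (2.80 to 3.53). Each of these 3 was higher in both kinds of member. Ptx3, for the soluble pattern receptor pentraxin 3, was 2.97-fold higher (2.68 to 3.30), and Sod2, for the mitochondrial superoxide dismutase, 2.38-fold (2.21 to 2.57). Tmem176a and Tmem176b, a neighbouring pair of membrane protein genes, were 2.58-fold and 2.51-fold higher, and Gpm6b, for a membrane glycoprotein, 2.65-fold. Gas6, for the ligand of the TAM receptor kinases, was 3.00-fold higher (2.68 to 3.35) over all members, but at 173 CPM in acute phase led and 33.02 in chemokine led cells against 30.6 in the others. Of its 284 UMIs in acute phase led cells 184 lay in the 19 mesothelial-marker cells, without which it stood at 75.5 CPM, 2.58-fold higher. Crct1 was 5.58-fold higher in the sum, but 1 cell held most of its UMIs in members (75.5%), and Mcpt8, a mast cell protease gene, was 3.02-fold higher with 33.6% of its UMIs in 1 cell.

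The lower genes were fewer. Acta1, the skeletal muscle actin gene that smooth muscle-like fibroblasts can express, stood at 29.9 CPM in members and 106 in the others, 0.283-fold (0.233 to 0.339), and at 31.7 CPM in acute phase led and 28.6 in chemokine led cells. Myh11, for smooth muscle myosin heavy chain, stood at 11.8 and 29.0 CPM, 0.405-fold (0.296 to 0.542). Both genes were thus at a similarly low level in acute phase led and chemokine led cells. Col6a3, for a collagen VI chain, stood at 24.8 and 49.8 CPM, with 14.6 in acute phase led and 32.1 in chemokine led cells. Cygb, for cytoglobin, was 0.554-fold, Fam150a 0.557-fold, the BCL2 family gene Bok 0.603-fold and Adgra2, for an adhesion receptor, 0.618-fold.

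Among 20 further chemokine genes, 3 were abundant enough to count and 2 of them were higher in members. Besides Ccl7 this was Cxcl14, a chemokine gene of resting epithelium and stroma, at 412 CPM against 159, 2.59-fold (2.46 to 2.73), with 514 CPM in chemokine led and 272 in acute phase led cells. The third, Cxcl12, the stromal ligand of CXCR4, stood at 353 and 404 CPM, 0.874-fold. Chemokine genes were therefore not all higher. Of those under 20 CPM over the pool, Cxcl16 stood at 37.0 CPM in members and 7.71 in the others, 4.80-fold (3.98 to 5.76), and was higher in both kinds. Ccl5 stood at 5.11 CPM, and 1 cell held most of its UMIs in members.

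Cytokine genes were mostly rare. Il11, an interleukin 6 family gene, stood at 67.5 CPM in members and 18.4 in the others, 3.67-fold (3.21 to 4.19), and at 92.9 in chemokine led against 32.3 in acute phase led cells. Csf1, for the macrophage growth factor, stood at 332 and 303 CPM, 1.10-fold, and these were the only 2 of 18 cytokine genes abundant enough to count. Il6 stood at 38.8 and 12.9 CPM, 3.00-fold (2.52 to 3.56), with a UMI in 66 members, and at 48.4 CPM in chemokine led against 25.6 in acute phase led cells. Lif, of the same family, stood at 12.5 and 4.44 CPM. Il33, an alarmin gene, went the other way between the kinds, at 17.7 CPM in acute phase led, 3.96 in chemokine led and 1.42 in the other cells. Il15 stood at 7.41 and 3.38 CPM, and Tslp at 7.67 and 6.62, within its counting interval.

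Acute phase and antimicrobial genes were largely too rare to count, and 1 of the 2 measured, Ptx3, was higher by the 1.5-fold rule. The other, Ifitm3, for an antiviral membrane protein, stood at 1354 and 951 CPM, 1.42-fold. Most of the rarer ones named here were highest in acute phase led cells. Hp, for haptoglobin, which binds free haemoglobin, stood at 48.7 CPM there, 5.72 in chemokine led and 2.56 in the other cells, although 1 cell held 53.8% of its UMIs in members. Slpi, for a leukocyte protease inhibitor, stood at 77.3, 30.4 and 6.07 CPM in that order. C3, the central complement component gene, stood at 51.8, 22.0 and 7.32 CPM, and Cp, for ceruloplasmin, at 23.7, 6.16 and 2.42. Lbp, for lipopolysaccharide binding protein, stood at 12.01 CPM in members and 3.84 in the rest, and Cd14, for its membrane partner, at 11.2 and 3.70. Ptx3 reversed this order, with 143 CPM in chemokine led and 56.0 in acute phase led cells. Complement genes under the counting limit were also higher, with C1ra at 8.94 and 3.97 CPM and the complement regulator Cd55 at 28.6 and 6.09 CPM, while Serping1, the C1 inhibitor gene, counted at 90.5 and 51.3 CPM, 1.76-fold.

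These genes were read again without the 19 mesothelial-marker cells. In the remaining 64 acute phase led cells Saa3 stood at 1532 CPM and Lcn2 at 42.3 CPM, values that the choice of the cells sets. Hp stood at 57.4 CPM there, on 76 UMIs, 22.4-fold over the other cells low in those markers (17.0 to 29.2). The cell that held most of the members' Hp UMIs is among these 64. The fold leans on that cell, which the interval does not cover. Lcn2 and Hp had 1 and 4 UMIs in the 19 cells. C3 stood at 42.3 CPM in the 64, 5.87-fold (4.38 to 7.73), and at 91.3 in the 19. Il33 stood at 16.6 CPM, 13.3-fold (7.96 to 21.2), and at 22.03 in the 19. Slpi stood at 35.5 CPM, 5.89-fold (4.27 to 7.95), and at 252 in the 19. Cp stood at 6.79 CPM, 2.85-fold (1.29 to 5.53), and at 94.4 in the 19. C3, Slpi and Cp were thus higher in the mesothelial-marker cells than in the 64. Il33 was close in both, on 7 UMIs in the 19 and 22 in the 64. Hp was lower in the 19, on 4 UMIs, and its level in the 64 leans on 1 cell. Krt18 stood at 0.755 CPM in the 64 cells, with 1 UMI, against 49.3 in all acute phase led cells, and Upk3b at 4.53 against 74.9. Vcam1 was higher in the 64 cells than in the 19, at 219 against 107 CPM, and Sod3 at 328 against 37.8. Of these genes Hp, C3, Il33, Slpi and Cp took no part in choosing the cells, and their intervals in the 64 cells lay above 1-fold. The 64 are, however, a part of the acute phase led cells in which these genes were already seen to be high. The intervals cover counting error only, Cp rests on 9 UMIs, and this reading is no separate check.

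**Figure D4:**
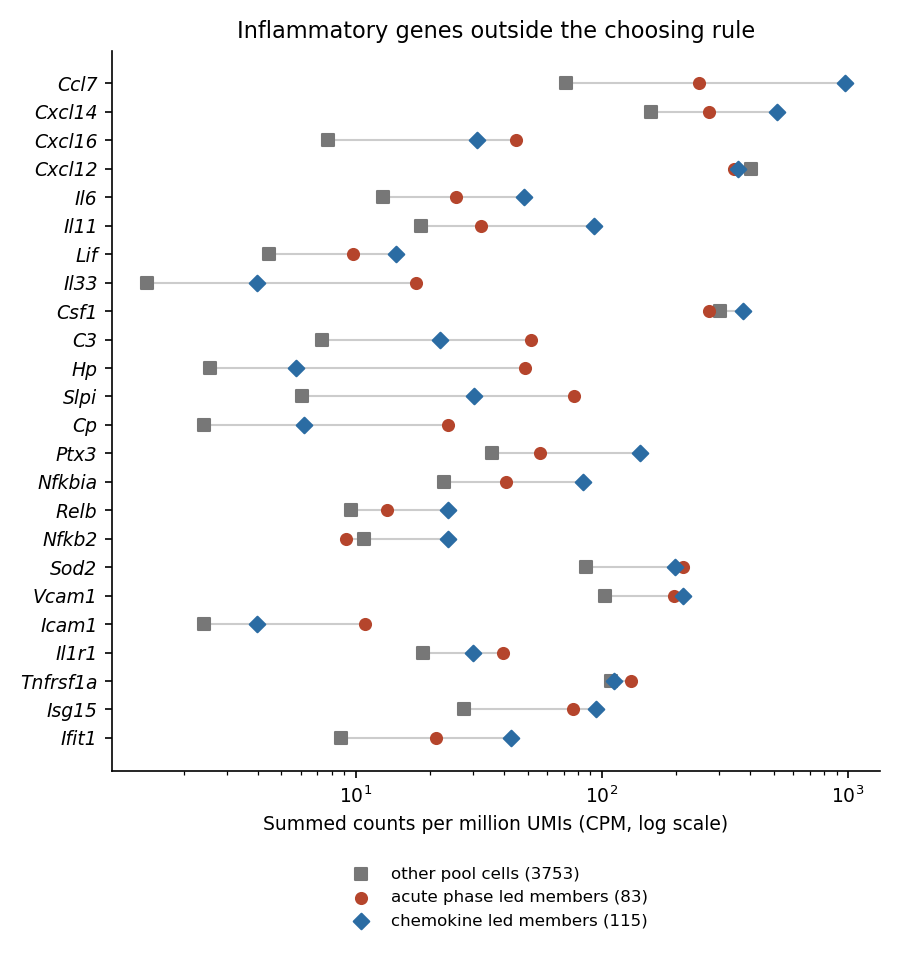
Summed counts per 1000000 UMIs (x axis, log scale) of 24 inflammatory genes outside the choosing rule (y axis) in 3753 other pool cells (squares), 83 acute phase led members (circles) and 115 chemokine led members (diamonds). Ccl7, Ptx3, Il6, Il11 and Nfkbia are highest in chemokine led cells, Hp, Slpi, C3, Cp and Il33 in acute phase led cells, and Cxcl12 and Csf1 lie within a narrow range.

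Most NF-kB feedback and adhesion genes abundant enough to count were higher. Of 7 measured, 5 were at least 1.5-fold higher and none lower over all members. By kind, 4 were higher in acute phase led and 5 in chemokine led cells. Over all measured genes the shares higher were 2.97% in members, 4.47% in acute phase led and 3.35% in chemokine led cells. With mitochondrial and ribosomal protein genes left out of the total, 4 of the 7 were higher over members. The median log2 fold of the list was 0.72 over members beside 0.06 over all measured genes. Nfkbia, the inhibitor gene whose promoter is printed above, stood at 65.7 CPM in members and 22.97 in the others, 2.86-fold (2.50 to 3.26), and at 83.7 in chemokine led against 40.8 in acute phase led cells. Sod2 had 214 CPM in acute phase led and 199 in chemokine led cells against 86.3 in the rest, and Vcam1, an adhesion receptor gene for leukocytes, 197 and 215 against 103. Between the kinds Sod2 differed by a ratio of 1.07 (0.932 to 1.24) and Vcam1 by 0.918, so neither set them apart. Nfkbib was 1.65-fold higher and Nfkbiz 1.52-fold, the second only 1.41-fold when ribosomal and mitochondrial genes were left out of the total. Rela, for a DNA-binding NF-kB subunit, was 1.22-fold and Tnfaip2 1.38-fold. Among rarer genes Relb stood at 23.8 CPM in chemokine led, 13.4 in acute phase led and 9.58 in other cells, Nfkb2 at 23.8, 9.13 and 10.8, and Birc3, a survival gene, at 9.69, 3.04 and 3.20. Icam1 went the other way, at 11.0 CPM in acute phase led and 3.96 in chemokine led cells. Of its UMIs in acute phase led cells 10 lay in the 19 mesothelial-marker cells. In the other 64 it stood at 6.04 CPM, on 8 UMIs, too few to set them apart from chemokine led cells.

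In the C/EBP and STAT3 axis 2 of 9 measured genes were higher and none lower, with a median log2 fold of 0.12. Over all measured genes 2.97% were higher and the median was 0.06. Cebpb, for a C/EBP factor of the acute phase response, stood at 595 CPM in members and 387 in the others, 1.54-fold (1.47 to 1.60), and at 695 in acute phase led against 522 in chemokine led cells. Timp1, a protease inhibitor gene that STAT3 can induce, stood at 3115 and 1979 CPM, 1.57-fold. Both lay below 1.5-fold, at 1.43 and 1.47, with the other total. Stat3 was 1.09-fold, its feedback gene Socs3 0.841-fold, and the receptor genes Il6st 0.974-fold and Osmr 1.28-fold.

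Receptors that sense inflammation were mostly at similar levels in members and other cells. Of 6 measured, 1 was higher: Ifnar2, an interferon receptor gene, at 42.4 and 21.1 CPM, 2.01-fold (1.70 to 2.36), with 24.1% of its 3′ windows shared with another listed gene. Tnfrsf1a, for the main tumour necrosis factor receptor, stood at 120.3 and 109 CPM. Il1r1, for the interleukin 1 receptor, lay just under the counting limit, at 33.98 and 18.8 CPM, 1.81-fold (1.51 to 2.16), and Il1rap, its partner, at 16.1 and 7.95 CPM. Of 9 inflammatory ligand or binding protein genes of other cell types, 8 were not seen in the members, among them Il1a, Il1b, Tnf, Il17a, Osm and Ifng, with 0 UMIs in 3913671, which for each allows up to 3 counts. The ninth, Il18bp, for a protein that binds interleukin 18, had 5 UMIs. The 11 receptor genes for the chosen genes' products summed to 42.2 CPM in members and 35.6 in the other cells. Among them Ccr2 and Cxcr2 had 0 UMIs in members, and Ackr3, for a scavenging receptor, stood at 20.4 and 15.1 CPM.

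Interferon response genes were higher, all 3 measured over members and in acute phase led cells and 2 of them in chemokine led cells. Over all measured genes the shares higher were 2.97%, 4.47% and 3.35% in that order. The 3 interferon genes were Isg15, Bst2 at 116 and 72.0 CPM (1.61-fold, 1.46 to 1.77) and Ifi35 at 37.8 and 23.5 CPM (1.61-fold, 1.35 to 1.91). With the other total Bst2 and Ifi35 were at 1.499 and 1.502. Of the members, 24 (12.1%, 7.92% to 17.5%) were also among the top 5% of the pool for the interferon list, 10 of them acute phase led and 14 chemokine led. For 5 other programs the same overlap was between 3.54% and 6.57% of members. Ifit1 was 3.86-fold higher, but 52.3% of its UMIs in members were in 1 cell. In antigen presentation, B2m, for the light chain of MHC class I, stood at 485 and 312 CPM, 1.56-fold, the heavy chain gene H2-D1 at 57.5 and 34.4, 1.67-fold, and Tapbp at 32.96 and 21.5, 1.54-fold, so all 3 measured genes passed over all members. With the other total B2m was 1.45-fold and Tapbp 1.43-fold, and by kind 1 of the 3 passed in acute phase led and 2 in chemokine led cells. The MHC class II gene H2-Aa had 0 UMIs in members.

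Some oxidant defence genes were higher in chemokine led than in acute phase led cells. Set directly against each other, 5 of 13 measured genes of the metal and oxidant list were at least 1.5-fold higher in chemokine led cells and none in acute phase led cells, beside 5.03% and 2.56% of all measured genes. Over all members 3 of the 13 were higher and none lower, with a median log2 fold of 0.47, whereas in chemokine led cells 8 were higher (median 0.69) and in acute phase led cells 2 were higher and 1 lower (median 0.31). Sod3 stood at 400 CPM in chemokine led and 272 in acute phase led cells. Fth1, the ferritin heavy chain gene, stood at 8193 CPM in members and 4339.7 in the others, 1.89-fold, and Prdx1, for a peroxiredoxin, at 1081 and 707, 1.53-fold (1.43 with the other total). Fth1 went the other way, 1.46-fold higher in acute phase led than in chemokine led cells (1.43 to 1.49). Chosen after their values were seen, Hmox1, for the haem-degrading oxygenase, stood at 133 CPM in chemokine led, 73.1 in acute phase led and 73.1 in other cells, and Nqo1, for a quinone reductase, at 55.9, 17.0 and 29.2. The metallothionein gene Mt1 was 1.26-fold.

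Among structural genes of the fibroblast few passed 1.5-fold over all members. Of 20 measured contractile genes none was higher and 2 were lower, Acta1 and Myh11, with a median log2 fold of -0.10. By kind, 5 were lower in chemokine led cells (Acta1, Myh11, Des, Lmod1 and Mylk, median -0.22), and 2 were higher and 2 lower in acute phase led cells. Over all measured genes 0.451% were lower in members and 0.688% in chemokine led cells. In acute phase led cells 4.47% of all measured genes were higher and 2.84% lower. Of the 5 measured smooth muscle or pericyte markers, which are all in the contractile list too, 3 were lower in chemokine led cells. Mylk, for myosin light chain kinase, stood at 210.02 CPM there, 318 in acute phase led and 330.1 in other cells. Acta2, for smooth muscle actin, stood at 3515 and 3216 CPM, 1.09-fold, and Tagln was 1.03-fold. Des, for desmin, separated the kinds, at 206 CPM in acute phase led and 42.7 in chemokine led cells against 83.6 in the others. Of the acute phase led cells the 19 with mesothelial markers held Des at 705 CPM and the other 64 at 86.8. Of 11 collagen genes none was higher and Col6a3 was lower. Col1a1 stood at 2113 and 2418 CPM, 0.874-fold, and Col1a2 was 0.881-fold. None of 13 TGF-beta response genes passed 1.5-fold either way. Among other matrix genes 2 of 14 were higher: Dcn, for the proteoglycan decorin, at 394 and 177 CPM, 2.22-fold (2.10 to 2.34), with 367 in acute phase led and 413 in chemokine led cells, and Mgp, for an inhibitor of calcification, 1.61-fold (1.496 with the other total). Mmp3, for stromelysin, chosen after its values were seen, stood at 102 CPM in acute phase led, 33.5 in chemokine led and 10.9 in other cells, and at 104 CPM in the 64 low in mesothelial markers. Ptges, for the inducible prostaglandin E synthase, was the 1 of 7 prostaglandin genes that was higher, at 68.0 and 31.4 CPM, 2.16-fold. Pdgfra, for a platelet-derived growth factor receptor of resting fibroblasts, stood at 45.7 and 26.8 CPM, 1.70-fold.

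Summed over cells, cycling genes were lower in acute phase led cells. Of 13 measured, 9 were at least 1.5-fold lower there and none higher (median log2 fold -0.86), beside 2.84% lower of all measured genes. In chemokine led cells 1 was higher and none lower (median 0.07). Per cell, the summed list had nearly the same median in both kinds. Among the 198 pool cells highest for the list were 2 acute phase led cells (2.41% of them) and 5 chemokine led cells (4.35%). How far the 9 genes rest on a few dividing cells was not tested. Over the alternative settings the list's median log2 fold ran from -2.14 to 0.18. Birc5, a mitosis gene, stood at 38.4, 82.3 and 78.5 CPM in acute phase led, chemokine led and other cells, and Ube2c, of the anaphase machinery, at 48.7, 103 and 88.2. Top2a had 0 UMIs in the 19 mesothelial-marker cells and stood at 22.6 CPM in the other 64 acute phase led cells against 44.0 in the rest, so it was low without them also. Of the growth arrest genes 1 of 11 was higher, Gadd45a, at 36.3 and 21.9 CPM, and the p21 gene Cdkn1a was 1.33-fold. Immediate early genes gave 2 of 12 higher, Ier3 and Maff, neither of them with the other total, and hypoxia and glycolysis 0 of 14 and the respiratory chain 0 of 16.

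In the stimulated library a smaller share of cells passed the same limit, and Saa3 held little of their UMIs of the 5 genes. Under the same filters 220 of 6708 stimulated cells were past the control limit (3.28%, 2.87% to 3.73%), and with every cell at 5000 UMIs 212 (3.16%, 2.75% to 3.61%) against 205 of 3951 control cells (5.19%, 4.52% to 5.93%). The intervals do not overlap, but there is 1 library a group, and the difference cannot be told apart from one between cultures or library preparations. Of the UMIs of the 5 genes in those 220 cells Ccl2 held 90.4%, Saa3 5.14% and Lcn2 3.18%. Over the whole pool Saa3 stood at 2.54 CPM in the stimulated and 63.1 in the control library, while Ccl2 stood at 66.5 and 56.3 and Lcn2 at 4.87 and 1.10. Ccl7 was high in the stimulated cells past the limit as well, at 596 CPM against 51.9 in the other stimulated cells, and Nfkbia stood at 60.9 and 32.3, Isg15 at 62.0 and 14.9 and Sod3 at 65.0 and 13.8. Vcam1 stood at 68.8 and 47.1, and Cxcl14 at 30.2 and 9.51. Mesothelial markers reached 5 UMIs per 10,000 in 2.73% of the stimulated cells past the limit, against 22.9% of the acute phase led and 3.48% of the chemokine led control cells. The libraries shared 53 barcodes, 3 of them among the 198 members.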

How the data were processed

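The authors deposited UMI counts per gene and barcode for 2 libraries of cultured mouse lung fibroblasts, raw and not normalized. The software version is 3.0.2 per the file headers, but Cell Ranger 1.3.1 and Seurat 3.0.0 per the submitters' processing notes, so the program behind the counts is unsettled. Build, annotation and the choice of barcodes: not given in the sources used here. Groups come from the sample titles.

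The members, lists and alternatives were chosen with earlier results of these data known. No doublet caller was run. Counts were summed over cells and divided by their total UMIs, giving CPM. Folds have exact conditional-Poisson 95% intervals and shares exact binomial (Clopper-Pearson) ones, computed with every cell thinned to 5000 UMIs. All of them cover counting error only. Genes with at least 20 CPM over the pool were counted as higher or lower at 1.5-fold, and rarer genes are given as values. Where a symbol occurs more than once, the most abundant entry was used. Cells of 1 library are not replicates, so nothing was tested. The fold code was tested on simulated counts.

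Named genes were the 5 rule genes; the 12 largest folds each way at 25 CPM or more with the same direction under equal weight per cell and both below and above the median depth (8 passed for lower); any member of the inflammatory lists; in other lists the 3 most abundant and the 2 largest folds each way past 1.5; and the 10 best single-cell correlations. Mitochondrial, ribosomal protein and unnamed model genes were left out, and some genes that the rule names are not reported here. Other named genes, and values by kind outside the inflammatory lists, were chosen after values were seen. Near copies were found by aligning transcript 3′ end windows (GENCODE M21) with minimap2 2.31. Promoter entries from RefSeq carry their own build. Analyses used Python 3.11.15, numpy 2.4.6, scipy 1.17.1, pandas 2.3.3 and matplotlib 3.10.9.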

Additional observations from a re-analysis of the deposited data

How the results depend on the processing

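The counts of genes at least 1.5-fold higher and lower, 138 and 21, moved with the choices. They were 66 and 7 with the 90th percentile, 397 and 315 with the 99th (40 cells), 425 and 139 at 5 CPM or more, 59 and 3 at 50 CPM or more, 2759 and 4329 with no minimum, and 35 and 3 at 2-fold. Without Saa3 in the sum 82 genes were higher. Lower genes numbered 48 without Ccl2 in the sum, 38 with equal weight per cell, 97 without mitochondrial and ribosomal protein genes in the total (where further genes reach 20 CPM), 80 below and 48 at or above the median depth. In alternatives chosen after seeing the data, acute phase led cells gave 208 and 132, chemokine led cells 32 lower and acute phase led cells low in mesothelial markers 184 lower. The NF-kB list's median log2 fold (0.72) lay between 0.50 and 1.01 in every alternative run for it. Folds that changed side were Crct1, 0.145 with the 99th percentile, and Cxcl5, 0 in acute phase led cells with or without the mesothelial-marker cells. The cause of these moves was not tested. Of the fold values of named genes 777 stayed near the reported one, 280 moved and 3 changed side. The depth of the members, 3913671 UMIs, limits genes of a few CPM. No paired analysis was possible because each group has 1 library.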

Other observations

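Genes outside the inflammatory lists also differed between the kinds of member. Those named here were chosen by the size of their fold among genes of at least 25 CPM, after values were seen. Mesothelial-marker cells made up 22.9% of acute phase led and 3.48% of chemokine led cells. No values without those cells are given for these genes, and their part in the differences was not tested. Gas1, a growth arrest gene that binds hedgehog ligands, stood at 111 CPM in acute phase led, 22.02 in chemokine led and 31.3 in other pool cells. Slc9a3r1, for a scaffold of membrane transporters, stood at 145.5 CPM, 37.4 and 43.3 in that order, and Tsc22d1, a TGF-beta responsive gene, at 269.7, 110.1 and 88.2. Ebf1, for a transcription factor of stromal lineages, went the other way, at 18.9 CPM in acute phase led cells, 45.8 in chemokine led cells and 48.7 in the rest, and Pcdh19, for a protocadherin, stood at 9.13, 23.8 and 29.4 CPM. Sept4, a septin gene, was higher in both kinds, at 57.8 and 91.6 CPM against 36.7.

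Lipofibroblast genes were seldom different in these control cells. Of 4 measured in the alveolar and lipofibroblast list 1 was higher, Limch1, at 69.5 CPM in members and 38.6 in the rest, and Plin2, for a lipid droplet coat protein, stood at 44.2 and 38.9. Lpl, for lipoprotein lipase, was under the counting limit at 14.1 and 3.96 CPM. In the ER and amino acid stress list 1 of 11 was higher, Dnajb9, at 36.3 and 22.6 CPM (1.497-fold with the other total), and Ddit3, a stress-induced transcription factor gene, stood at 175 and 171.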
